A study of Mus musculus with 8 samples.

Results

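The 33 genes described here are T cell lineage genes, chosen by symbol, out of 21887 protein-coding genes of the mouse annotation (called members below), and they were followed in open chromatin of sorted dendritic cells. They are 4 CD3 chains of the T cell receptor, 9 kinases, adaptors and regulators that act close to the receptor, 8 transcription and chromatin factors, 4 costimulatory and checkpoint receptors, 5 receptors for cytokines, chemokines or lipids, and 3 surface glycoproteins. Chromatin was mapped with ATAC-seq. The Tn5 transposase cuts accessible DNA and adds sequencing adapters in this assay, and each library was deposited as a list of summits, the points of strongest signal within called peaks. A list of 61737 summits per library, those with the highest peak scores, was used, and each summit was given to the nearest protein-coding gene at most 50 kb away. The value of a gene is its number of summits, and values are written as those of the 2 WT libraries against those of the 2 KO libraries.

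The cells were conventional dendritic cells from mouse spleen, enriched with a pan-DC kit and sorted as Lin-CD11c+MHCII+CD64-. The subset called cDC1 was XCR1+CD11b-, and cDC2 was defined as XCR1-CD11b+. All animals carried floxed Hdac1, the gene of a histone deacetylase, either as "HDAC1 floxed" animals (WT here) or with Mx1-Cre ("HDAC1 Mx1-Cre", KO here), and every mouse, WT included, had received poly I:C, with cells sorted 2 weeks later. Each of the 2 subsets thus had a WT and a KO group, 4 groups of 2 libraries. Mx1-Cre is switched on by interferon and is not restricted to dendritic cells, so the deletion was not limited to the cells that were sorted. Whether both libraries of a group stem from different mice is not stated in the labels, so the p-values speak to the spread among these libraries alone, which may be technical. The lists hold no read counts, so the depth is unknown and no counting interval can be given. A gene with 0 summits had no called peak in its territory, which does not show closed chromatin.

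T cells recognise antigen through a T cell receptor whose CD3 chains carry the signal into the cell. There the kinase Lck phosphorylates the chains, the kinase Zap70 docks on them, and the adaptor Lat passes the signal on, while factors such as Tcf7, Gata3 and Bcl11b set up and maintain T cell identity. Conventional dendritic cells have no T cell receptor and are the cells that present antigen to T cells, although some of these genes, Cd5 and Il2ra among them, are also known from dendritic cells.

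Annotated start sites and their sequences were found for 23 of the 33 genes in the RefSeq promoter table of build GRCm38.p6. The 250 bases before the start are shown for 8 of them, written 5′ to 3′ on the strand of the gene. The first 4 are the CD3 chains, none of which had a summit within 250 bp of its listed start in any library. They are Cd3e at chr9:45009612-45009861 on the minus strand, Cd3d at chr9:44981536-44981785 on the plus strand, Cd3g at chr9:44980432-44980681 on the minus strand and Cd247 at chr1:165788431-165788680 on the plus strand. Cd5 at chr19:10738975-10739224 and Il7r at chr15:9529877-9530126, both on the minus strand, and Prkcq at chr2:11172132-11172381 on the plus strand are the 3 genes with a summit within 250 bp of the start in all 8 libraries. Ctla4 at chr1:60908775-60909024 on the plus strand is shown because its start carried a summit in cDC1 libraries only, a choice made after its values were seen. Capitals mark matches, on either strand, to 6 motifs searched by their exact letters. For the RUNX factors these were TGTGGT, for the TCF/LEF factors CTTTGA and for PU.1 and its ETS relatives GAGGAA. A further ETS motif was CCGGAA, the letters for GATA factors were AGATAA, and the E-box was CAGCTG.
Cd3e: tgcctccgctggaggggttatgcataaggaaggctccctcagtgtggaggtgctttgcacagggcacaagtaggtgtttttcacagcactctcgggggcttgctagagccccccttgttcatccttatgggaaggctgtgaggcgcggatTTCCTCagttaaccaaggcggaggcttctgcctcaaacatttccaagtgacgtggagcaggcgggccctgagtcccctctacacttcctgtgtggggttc
Cd3d: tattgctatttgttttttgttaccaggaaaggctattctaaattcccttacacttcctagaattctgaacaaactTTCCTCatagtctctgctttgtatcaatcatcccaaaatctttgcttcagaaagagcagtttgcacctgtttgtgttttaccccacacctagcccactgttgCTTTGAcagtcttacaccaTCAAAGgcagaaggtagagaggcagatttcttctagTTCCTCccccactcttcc
Cd3g: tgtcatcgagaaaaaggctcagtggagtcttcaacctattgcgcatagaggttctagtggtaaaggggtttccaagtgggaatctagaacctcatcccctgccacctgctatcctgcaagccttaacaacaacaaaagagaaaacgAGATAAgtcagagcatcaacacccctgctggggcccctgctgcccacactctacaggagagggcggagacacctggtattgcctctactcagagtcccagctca
Cd247: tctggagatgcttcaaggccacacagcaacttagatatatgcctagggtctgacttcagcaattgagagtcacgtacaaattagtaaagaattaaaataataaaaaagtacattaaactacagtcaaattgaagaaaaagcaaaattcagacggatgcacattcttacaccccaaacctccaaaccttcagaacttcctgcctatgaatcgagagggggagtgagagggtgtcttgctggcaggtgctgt
Cd5: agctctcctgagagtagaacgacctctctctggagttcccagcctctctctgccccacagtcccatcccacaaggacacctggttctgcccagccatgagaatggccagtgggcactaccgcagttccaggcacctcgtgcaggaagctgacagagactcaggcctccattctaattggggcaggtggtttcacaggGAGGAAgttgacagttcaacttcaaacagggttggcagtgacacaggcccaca
Il7r: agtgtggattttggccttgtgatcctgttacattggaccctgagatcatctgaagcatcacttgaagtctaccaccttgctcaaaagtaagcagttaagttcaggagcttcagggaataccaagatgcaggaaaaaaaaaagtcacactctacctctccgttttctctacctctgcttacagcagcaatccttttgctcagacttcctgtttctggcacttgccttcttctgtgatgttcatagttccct
Prkcq: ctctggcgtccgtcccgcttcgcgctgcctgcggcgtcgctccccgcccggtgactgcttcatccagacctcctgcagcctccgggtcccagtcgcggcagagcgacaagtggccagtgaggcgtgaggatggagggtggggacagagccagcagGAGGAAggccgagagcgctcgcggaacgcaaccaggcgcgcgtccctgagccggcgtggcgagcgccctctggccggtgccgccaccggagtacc
Ctla4: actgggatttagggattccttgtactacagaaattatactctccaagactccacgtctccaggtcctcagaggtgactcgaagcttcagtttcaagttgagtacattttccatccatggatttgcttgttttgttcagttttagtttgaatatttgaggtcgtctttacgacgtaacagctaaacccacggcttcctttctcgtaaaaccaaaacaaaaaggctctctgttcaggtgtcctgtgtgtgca

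The GAGGAA motif stood in the windows of Cd3e, Cd3d, Cd5 and Prkcq, so it occurred both at starts without a summit and at starts with one. Cd3d held 2 matches to GAGGAA and 2 to CTTTGA, the letters bound by Tcf7 and Lef1, and Cd3g held 1 match to AGATAA. Cd247, Il7r and Ctla4 held no match, which says only that these letters were not in the window. No matches overlapped in the 8 windows. Over the 37 start windows of the 23 genes, 37.8% held GAGGAA, 16.2% CTTTGA, 10.8% the E-box, and 8.11% each the RUNX, the second ETS and the GATA letters. Of 21263 windows of the same length over all genes, 22.2% held GAGGAA, 12.7% CTTTGA, 12.1% the E-box, 12.4% the RUNX letters, 15.0% the second ETS motif and 8.81% the GATA letters. Several genes have more than 1 start, so windows of a gene can share bases, and a match is a description of letters, not a bound site.

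Most T cell lineage genes held called peaks in these dendritic cells, and most of those did so in every library. Of the 33 genes, 29 (87.9%) had at least 1 summit in all 8 libraries, against 59.7% of all protein-coding genes, and 2 (6.06%) had none in any library, against 23.3%. The territory of a gene, the stretch in which a summit is given to it, had a median of 75 kb for the 33 genes and 45 kb for all genes. Per 100 kb of territory the median gene of the group held 5.0 summits and the median of all genes 3.52. The same median was 6.58 for 56 further T cell genes, 17.0 for genes of conventional dendritic cells and MHC class II, 9.59 for cDC1 identity genes, 7.62 for cDC2 identity genes, 3.75 for B cell genes and 3.52 for NK cell and innate lymphoid genes. It was 6.99 for plasmacytoid DC genes, 4.07 for monocyte and macrophage genes and 9.09 for housekeeping genes, so lists of other cell types lay on both sides of the members.

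The summed number of summits over the 33 genes was 154 and 151 against 156 and 144 in cDC1 and 142 and 137 against 157 and 152 in cDC2. WT cDC2 held the lowest sums, 139.5 ± 3.54 (SD, n = 2), and KO cDC2 the highest mean, 154.5 ± 3.54 (SD, n = 2), with WT cDC1 at 152.5 ± 2.12 (SD, n = 2) and KO cDC1 at 150 ± 8.49 (SD, n = 2). This order of the groups turned with the length of the list. With the 30868 best-ranked summits KO cDC2 had the lowest mean, from 59 and 50, below WT cDC2 with 58 and 54, and with all deposited summits KO cDC1 had the highest, from 183 and 228. The sums over 61737 summits are 0.222% to 0.254% of a list and carry no test, because the members were chosen as a group. The lists as deposited ran from 61737 summits in WT cDC2 replicate 2 to 96031 in KO cDC1 replicate 2. In bulk libraries a peak from a few cells of another type and a weak peak shared by every sorted cell cannot be told apart.

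**Figure D1:**
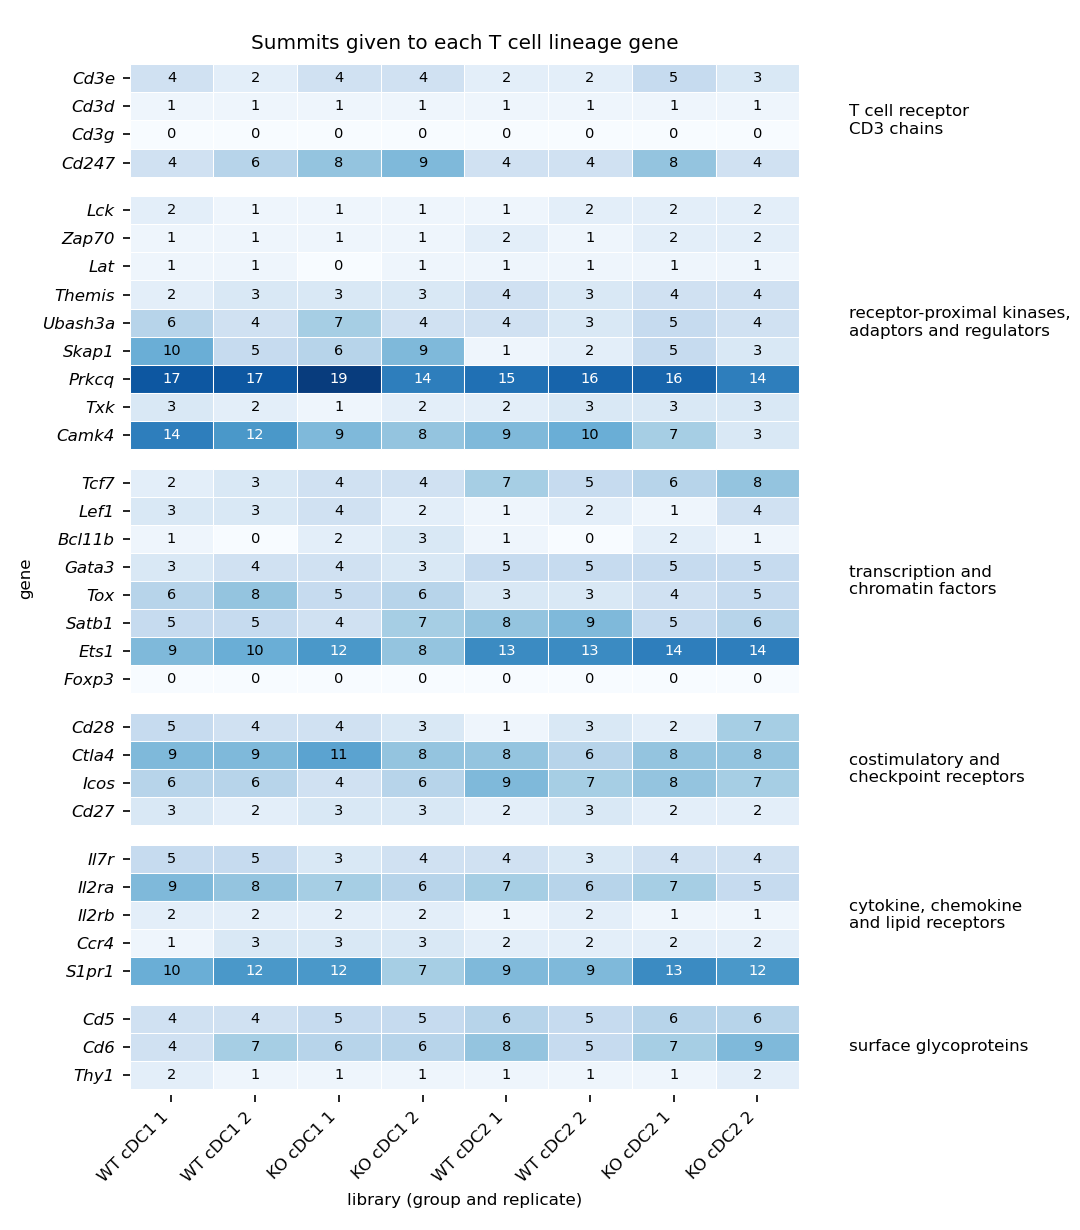
Summits given to each of the 33 genes (rows, grouped by role) in each library (columns, group and replicate number); the number is printed in each cell and the shade deepens with it. Prkcq, with 14 to 19 summits, has the most in every library except KO cDC2 replicate 2, where Ets1 equals it at 14, and Cd3g and Foxp3 have 0 in all 8.

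Among the CD3 chains, which couple the receptor to its kinases, Cd3g had 0 summits in all 8 libraries and Cd3d exactly 1 in each. The single Cd3d site at chr9:44986522-44986654 lay 4736 to 4868 bp from the Cd3d start, within 1 kb of the other end of the gene, and ranked between the best 5.74% and 23.1% of the list. Cd3e had 4 and 2 against 4 and 4 summits in cDC1 and 2 and 2 against 5 and 3 in cDC2. None of its 5 sites was found in all 8 libraries, and its closest summit to the start stood 3632 to 5472 bp away. The intragenic Cd3e site at chr9:45005843-45005979 was in 7 of 8 libraries, at 19.7% to 45.5% of the list in cDC1 and 68.0% to 72.4% in the 3 cDC2 libraries that had it.

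**Figure D2:**
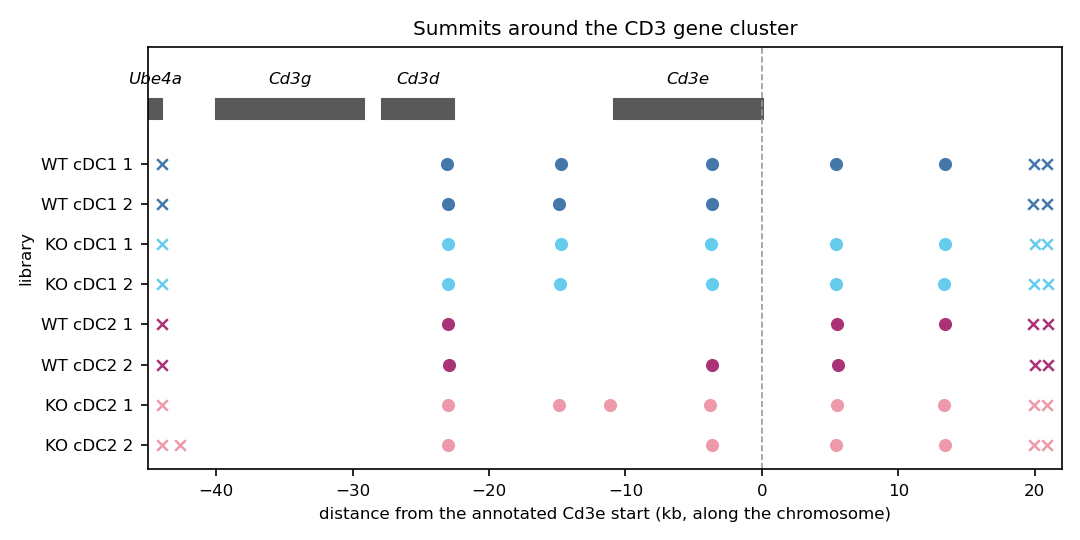
Summits of each library (rows) by distance in kb from the annotated Cd3e start along the chromosome; circles are summits given to Cd3g, Cd3d or Cd3e, crosses those given to neighbouring genes, and grey bars the gene spans. No circle lies at Cd3g, every library has 1 at the right end of Cd3d, and none sits at the Cd3e start, the dashed line.

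Cd247, the CD3 zeta chain, lies on chromosome 1, apart from the other 3 genes, and had more summits over all 8 libraries than any of them. Its territory was 90 kb, against 33 kb at Cd3e, 12 kb at Cd3d and 13 kb at Cd3g. Per 100 kb it held 6.53 summits, fewer than Cd3e with 9.85 and Cd3d with 8.33. Cd247 had 4 and 6 against 8 and 9 in cDC1 and 4 and 4 against 8 and 4 in cDC2. The KO cDC1 values lay above the WT cDC1 values, while in cDC2 the groups met at 4. Of its 13 sites 2 were in all 8 libraries, the better ranked of them at chr1:165781529-165781588, 7123 bp before the listed start and inside the gene span. The span begins upstream of that start, at chr1:165779952. A site within 1 kb of this beginning, at chr1:165780073-165780097, was in 3 libraries, and a second one, at chr1:165780700-165781136, in 5. Another site, at chr1:165857318-165857400, was in the 4 cDC1 libraries and in no cDC2 library. Cd247 also held the one member site found in every KO and no WT library, at chr1:165858555-165858602, at 73.3% to 93.8% of the lists, so near their weak end. Over all genes and the spaces between them 94 of 112443 sites had that pattern and 78 the reverse.

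The kinases Lck and Zap70 and the adaptor Lat, next to the receptor, had few summits, in territories of 30, 28 and 41 kb. Per 100 kb they held 5.0, 4.91 and 2.13, against a median of 5.0 for the 33 genes and 3.52 for all genes. Lck had 1 or 2 per library, with 1 of its 3 sites in all 8, at chr4:129556501-129556649, 1723 to 1871 bp from the nearer of its starts. Zap70 also had 1 or 2, and its constant site, at chr1:36784854-36784919, lay 2065 bp beyond the gene span. Lat, the adaptor downstream of both, had 1 summit in 7 libraries and 0 in KO cDC1 replicate 1. Its start carried a summit within 250 bp in both WT cDC1 and all 4 cDC2 libraries and in neither KO cDC1 library, where the nearest summit stood 7896 and 7929 bp away. In the WT cDC1 libraries that start site stood at 99.9% and 98.1% of the list, its very end, and in cDC2 at 47.7% to 78.4%. With a mean of 0.875 summits Lat was not tested.

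Of the regulators in this class, Prkcq, which encodes protein kinase C theta, held the most summits of all 33 genes, with 17 and 17 against 19 and 14 in cDC1 and 15 and 16 against 16 and 14 in cDC2. The ranges of the 4 groups overlapped. It had 30 sites, 7 of them in all 8 libraries, including its start (9 to 130 bp away) and 5 further sites inside the gene. Camk4, a calcium- and calmodulin-dependent kinase, had 14 and 12 against 9 and 8 summits in cDC1 and 9 and 10 against 7 and 3 in cDC2. Its KO values were below its WT values in both subsets. Skap1, an adaptor that links the receptor to integrin adhesion, had 10 and 5 against 6 and 9 in cDC1 and 1 and 2 against 5 and 3 in cDC2. Themis, needed for thymocyte selection, had 2 to 4, the phosphatase-family regulator Ubash3a 3 to 7, and the Tec-family kinase Txk 1 to 3.

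The transcription and chromatin factors ranged from 0 summits at Foxp3, the factor of regulatory T cells, to 14 at Ets1. At the 2 Foxp3 starts the nearest summit in any library stood 4855 bp away or farther and was given to a neighbouring gene. Ets1, which is broadly used in lymphocytes, had 9 and 10 against 12 and 8 summits in cDC1 and 13 and 13 against 14 and 14 in cDC2. It also held the strongest constant site of the 33 genes, at chr9:32695954-32696019 inside the gene, which ranked among the best 0.518% to 1.82% of every list. Gata3, the factor of T helper type 2 and early T cells, had 3 or 4 summits in cDC1 and 5 in each cDC2 library. A Gata3 site 1077 to 1123 bp before its start, at chr2:9879677-9879723, ranked at 2.29% to 9.69%. A summit within 250 bp of the Gata3 start appeared in both KO cDC2 libraries alone, at 81.6% and 87.2% of their lists, near the weak end.

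Satb1, a chromatin organiser of thymocytes, had 5 and 5 against 4 and 7 summits in cDC1 and 8 and 9 against 5 and 6 in cDC2. Tcf7, the gene of TCF1, had 2 and 3 against 4 and 4 in cDC1 and 7 and 5 against 6 and 8 in cDC2. Tox, a regulator of CD4 T cell development and T cell exhaustion, had 6 and 8 against 5 and 6 in cDC1 and 3 and 3 against 4 and 5 in cDC2. Each cDC2 library exceeded each cDC1 library at Tcf7, whereas at Tox the subsets met at 5. Tcf7's one constant site, at chr11:52283289-52283450, spanned the outer end of the gene, upstream of both listed starts, and its rank lay between 29.6% and 63.5%. The remaining Tcf7 sites lay up to 35593 bp upstream of the nearest start and 28447 bp downstream of it. Lef1, the relative of Tcf7, had 1 to 4 summits, and Bcl11b, which seals T cell commitment, had 0 to 3, with none in WT replicate 2 of either subset.

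The costimulatory and checkpoint receptors Cd28, Ctla4 and Icos lie next to each other on chromosome 1. Ctla4, the inhibitory receptor for CD80 and CD86, had 9 and 9 against 11 and 8 summits in cDC1 and 8 and 6 against 8 and 8 in cDC2. Of its 13 sites 4 were in all 8 libraries, 43635 and 9494 bp before and 7342 and 28501 bp after its start, and ranked at 20.6% to 98.6%. The start itself, at chr1:60908930-60908960, carried a summit 65 to 95 bp away in all 4 cDC1 libraries, at 30.6% to 55.9% of the list. In cDC2 the closest summit was 4173 to 4318 bp from the start in each library. Icos had 6 and 6 against 4 and 6 in cDC1 and 9 and 7 against 8 and 7 in cDC2, so cDC2 values lay above cDC1 values. Cd28 varied from 1 to 7, with both extremes in cDC2, and had no site in all 8 libraries. Cd27, a TNF receptor family member, had 2 or 3.

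**Figure D3:**
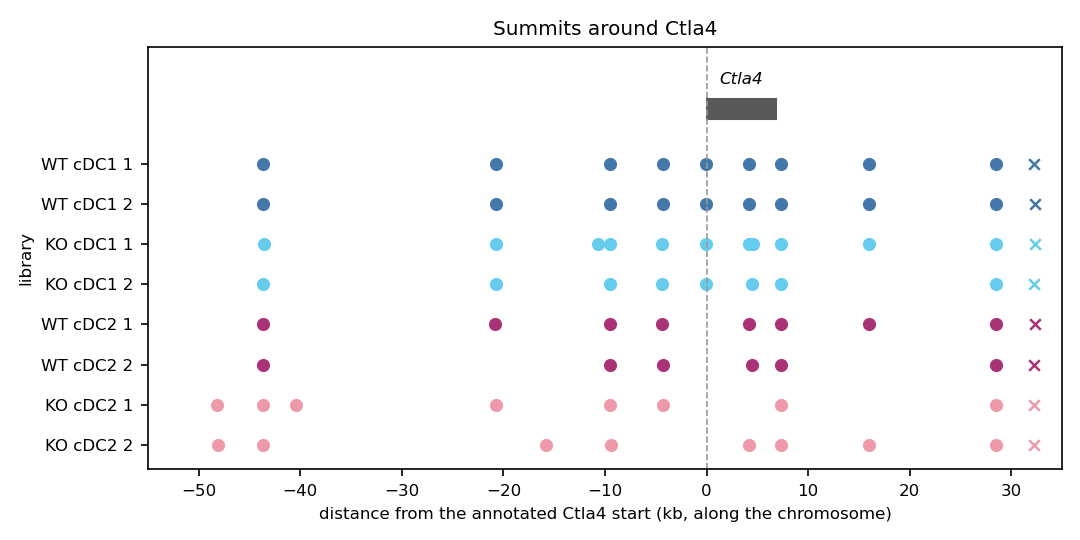
Summits of each library (rows) by distance in kb from the annotated Ctla4 start (dashed line); circles were given to Ctla4, crosses to Icos. The 4 cDC1 rows have a circle at the start and the 4 cDC2 rows do not, while the sites 43635 and 9494 bp before the start are in all 8 rows.

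Among the receptors for soluble ligands, S1pr1, which guides lymphocyte exit from tissues, had 10 and 12 against 12 and 7 summits in cDC1 and 9 and 9 against 13 and 12 in cDC2. Its KO values lay above the WT values in cDC2 and overlapped them in cDC1. Il2ra, the interleukin-2 receptor alpha chain, had 9 and 8 against 7 and 6 in cDC1 and 7 and 6 against 7 and 5 in cDC2. Its site 5483 bp before the start, at chr2:11637258-11637360, had a median rank of 2.79%, next to the Ets1 site among the constant sites of the 33 genes. Il7r, the interleukin-7 receptor alpha chain, had 3 to 5 summits, one of them 2 to 48 bp from the start in every library. Il2rb had 1 or 2 and the chemokine receptor Ccr4 1 to 3.

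The surface glycoproteins Cd5 and Cd6, neighbours on chromosome 19, were marked in all libraries. Cd5, which dampens receptor signals, had 4 to 6 summits, with one of them 16 to 43 bp from its start in every library and a median rank of 7.21% for that site, against 30.2% for the start site of Il7r and 51.5% for that of Prkcq. Cd6, a ligand-binding relative of Cd5, had 4 and 7 against 6 and 6 in cDC1 and 8 and 5 against 7 and 9 in cDC2. Thy1 had 1 or 2, and its constant site lay 37893 bp outside the gene span.

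At most listed starts of these genes a summit was missing from some or all libraries. Of the 23 genes with a listed start, 3 (13.0%) had a summit within 250 bp of a start in all 8 libraries, against 38.8% of 17492 genes, and 12 (52.2%) had none in any library, against 44.2%. The 12 were Cd3e, Cd3d, Cd3g, Cd247, Lck, Zap70, Lef1, Bcl11b, Themis, Ccr4, Cd27 and Foxp3. Only listed starts were searched, and the span of Cd247 begins upstream of its listed start. The other 8 genes had a summit there in 1 to 6 libraries. Sites were formed by joining summits of any library at most 250 bp apart, and 295 were given to the 33 genes. Of these 53.9% lay inside the gene span, 10.5% within 1 kb of a gene end and 35.6% farther out, against 53.2%, 17.9% and 28.9% of all 99140 sites given to a gene. Sites in all 8 libraries made up 19.3% (57) of the 295, and 27.4% of the sites given to any gene, while 27.5% were found in 1 library alone, against 23.9%.

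The comparison of KO with WT asks whether the number of called summits at these genes differed, and in cDC1 no tested member passed. A change of signal at a peak called in both genotypes does not enter this number. Lists cut to equal length also hide a change shared by all sites. The comparison was made with limma on log2(summits + 1), with Benjamini-Hochberg adjustment and a threshold of 0.05. It covered the 14068 genes that averaged 1 summit or more per library, with adjustment over all of them. This left 30 members, since Cd3g, Foxp3 and Lat fell under the minimum. In cDC1, 0 of 30 passed, where 0.0498% of all genes did. An unadjusted p under 0.05 by limma was found at 2 of 30 members and at 742 of 14068 genes. Bcl11b had 1 and 0 summits in WT and 2 and 3 in KO, a log2 difference of 1.29 (SE 0.38, limma adjusted p = 0.443). Cd247 differed by 0.68 (SE 0.30, limma adjusted p = 0.914). The median over the 30 members was 0, as over all genes, with 14 members above 0, 12 below and 4 at 0. Of all genes 4689 lay above 0, 4691 below and 4688 at 0.

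In cDC1 the KO values lay wholly above the WT values at Cd247, Tcf7, Bcl11b and Cd5, 4 of 30 members (13.3%), against 6.72% of all genes. They lay wholly below at Il7r, Il2ra and Camk4, 3 of 30 (10%), against 6.75% of all genes. Bcl11b did not pass over all 8 libraries but did in 5 of 16 alternatives. It passed without WT cDC1 replicate 1 (log2 difference 1.79), WT cDC2 replicate 1 or WT cDC2 replicate 2. With the replicate number as a block it also passed (limma adjusted p = 0.00477), where 113 genes did. The same held with a trended and robust variance (limma adjusted p = 0.0045), where 124 genes passed, against 7 in the main fit. Because WT cDC1 stood at 1 and 0 summits, the fitted difference depends on the pseudocount. With a pseudocount of 0.5 it was 1.77 and did not pass (limma adjusted p = 0.954). The Bcl11b site at chr12:107998849-107998988, 4496 bp into the gene, was in both KO and neither WT cDC1 library, at 82.3% to 88.1% of the list. Of the 295 member sites 4 were in both KO and no WT library of cDC1 (1.4%, against 2.15% of sites given to any gene) and 10 showed the reverse (3.39%, against 2.28%).

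In cDC2 no member passed either, with more members above 0 than below. The comparison called 0 of 30 members and 0.0782% of all genes. The median log2 difference of the 30 members was 0.19, against 0 over all genes, with 20 members above 0, 7 below and 3 at 0. Of all genes 4940 lay above 0, 4781 below and 4347 at 0. The WT cDC2 list of replicate 2 was used whole, since it was the shortest deposited, and the lower member sums of WT cDC2 stand beside this median. Its part in the median was not tested. Unadjusted p was under 0.05 at Skap1 (1.00, SE 0.33), Camk4 (-0.89, SE 0.30) and Cd3e (0.71, SE 0.29), with limma adjusted p-values of 0.696, 0.70 and 0.841. Beside these 3 of 30 members, 793 of 14068 genes had an unadjusted p under 0.05 by limma.

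KO values lay wholly above WT values in cDC2 at Cd3e, Tox, Skap1, S1pr1 and Ets1, 5 of 30 members (16.7%), against 6.79% of all genes. They lay wholly below at Satb1 and Camk4, 2 of 30 (6.67%), against 6.26%. At Ets1 that separation was of 13 and 13 against 14 and 14 summits, a log2 difference of 0.10 (SE 0.26). Camk4 was the only member with KO values wholly below WT values in both subsets. Its log2 differences were -0.56 (SE 0.30) in cDC1 and -0.89 in cDC2, neither past the threshold. With a trended and robust variance Camk4 (limma adjusted p = 0.00628) and Skap1 (limma adjusted p = 0.0309) passed in cDC2, each in that 1 alternative alone. In that setting 89 genes passed in cDC2, against 11 in the main fit. Leaving out KO cDC2 replicate 2, whose count was 3, the cDC2 value for Camk4 was -0.39. In cDC2, 11 member sites were in both KO and no WT library (3.73%, against 2.32% of sites given to any gene), 2 of them at S1pr1, and 6 showed the reverse (2.03%, against 1.90%), 3 of them at Satb1 and 2 at Camk4.

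**Figure D4:**
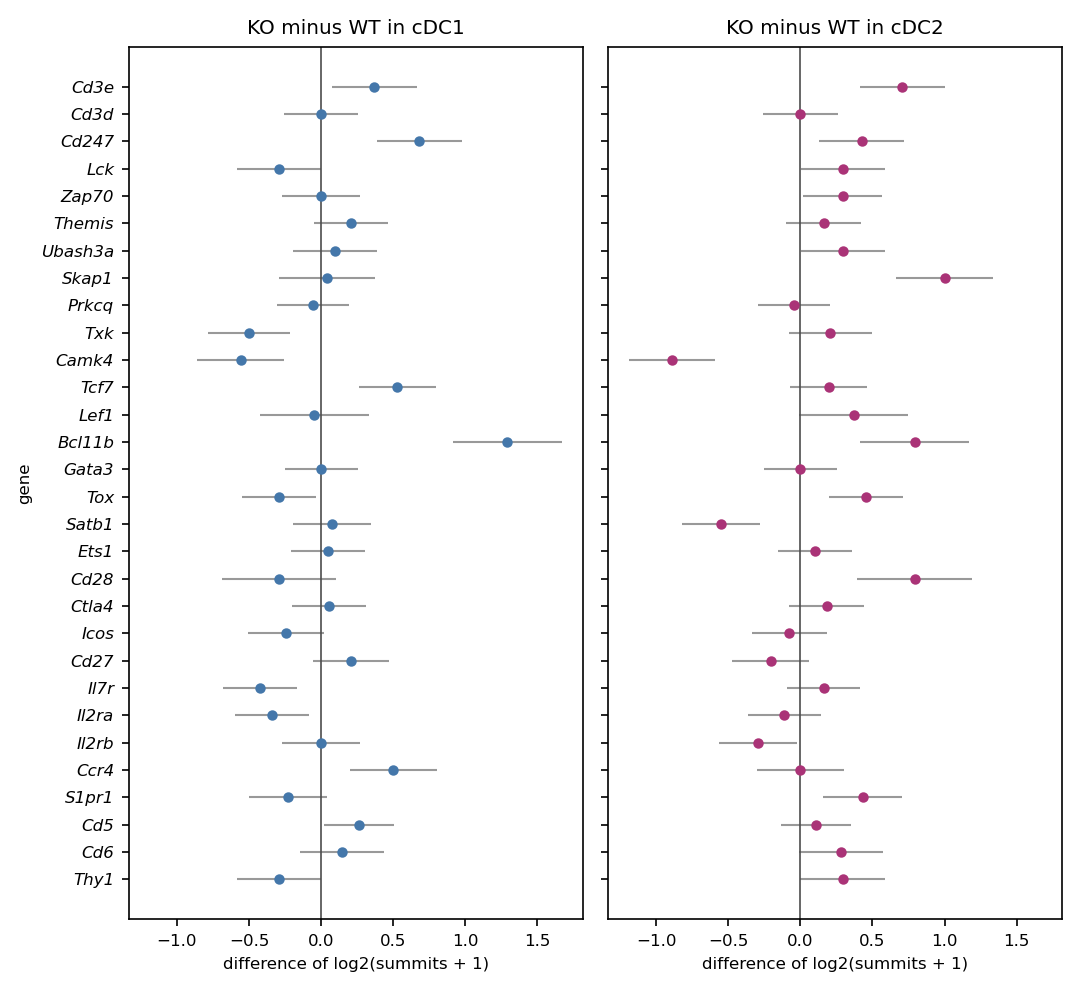
KO minus WT difference of log2(summits + 1) for the 30 tested genes in cDC1 (left) and cDC2 (right); points are differences of group means (2 libraries each) and bars the limma standard error. No gene passed the threshold in either subset; Bcl11b in cDC1 (1.29) and Skap1 in cDC2 (1.00) lie farthest to the right and Camk4 in cDC2 (-0.89) farthest to the left.

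The genotype effects of the subsets were also compared with each other, and no member passed. In this test of the interaction 0 of 30 members passed, as did 0% of all genes, and 0 members and 537 genes had an unadjusted p under 0.05 by limma. Skap1 (0.96, SE 0.47) and Tox (0.75, SE 0.36) came nearest among the members, both with an unadjusted p above 0.05 and an adjusted p of 1.0 by limma. With a trended and robust variance, or with the replicate number as a block, limma called 38 genes in each case, and no member.

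The subsets differed at 3 of the 30 members over both genotypes, while 10.4% of all genes passed the same limma test. Tcf7 was higher in cDC2, 1 member where 4.7% of all genes were higher, with 3.25 ± 0.957 against 6.50 ± 1.29 summits in cDC1 and cDC2 (SD, n = 4 each), a log2 difference of 0.83 (SE 0.19, limma adjusted p = 0.0117). Skap1 and Tox were lower, 2 members where 5.66% of all genes were lower. Skap1 had 7.5 ± 2.38 in cDC1 and 2.75 ± 1.71 in cDC2, a difference of -1.25 (SE 0.24, limma adjusted p = 0.00344, n = 4 each). Tox had 6.25 ± 1.26 and 3.75 ± 0.957, a difference of -0.62 (SE 0.18, limma adjusted p = 0.0438, n = 4 each). The counts of Skap1 met at 5, where WT cDC1 replicate 2 and KO cDC2 replicate 1 had the same number.

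Skap1 kept its call without each library in turn, as did Tcf7. Tox lost it without WT cDC1 replicate 2 (limma adjusted p = 0.139), KO cDC1 replicate 2 (0.114), WT cDC2 replicate 1 (0.0579), WT cDC2 replicate 2 (0.0607) or KO cDC2 replicate 1 (0.119). Tcf7 did not pass when all deposited summits were used (0.63, adjusted p = 0.0883 by limma) or summits within 10 kb (0.62, adjusted p = 0.069 by limma). All 3 differences had the same sign in every alternative in which they could be fitted. A further 6 members, Camk4, Ets1, Gata3, Icos, Il2rb and Zap70, had an unadjusted p under 0.05, with adjusted p-values of 0.0993 to 0.17 by limma. With the 3 called members these were 9 of 30, where 3452 of 14068 genes had an unadjusted p under 0.05. Camk4, with a difference of -0.58, passed in 6 of 18 alternatives, and Ets1 and Icos in 1 each, with the trended and robust variance. Lef1, at -0.50, passed with all deposited summits (-1.23, limma adjusted p = 0.00254) and was -0.83 without KO cDC2 replicate 2. Its sign turned in 2 alternatives. The one Lef1 site in all 8 libraries, at chr3:131208633-131208755, ranked better in cDC2, at 2.18% to 7.48%, than in cDC1, at 45.1% to 64.3%. Cd28, Ctla4, Satb1 and Cd5 passed in 1 or 2 alternatives each.

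**Figure D5:**
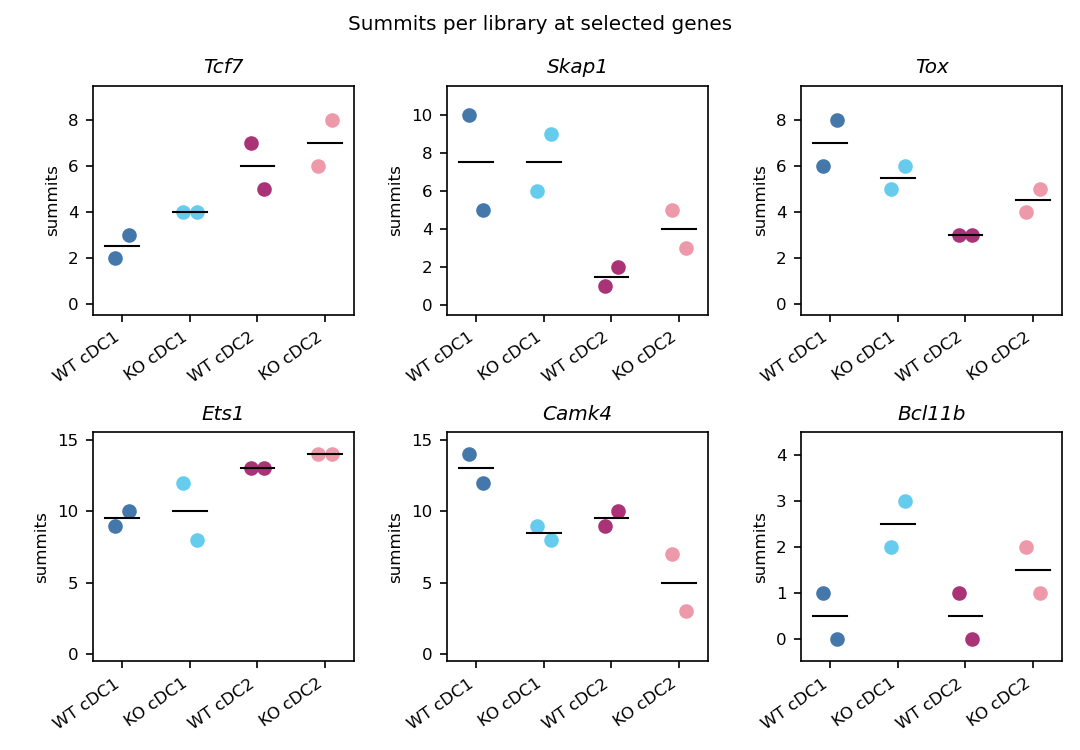
Summits per library (points) and group mean (line) at 6 genes in the 4 groups of 2 libraries. All cDC2 points lie above all cDC1 points at Tcf7 and Ets1; the KO points lie below the WT points of the same subset at Camk4, and above them in cDC1 at Bcl11b.

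Values of cDC2 lay wholly above those of cDC1, 4 libraries against 4, at Tcf7, Gata3, Icos and Ets1, which is 4 of 30 members (13.3%) against 4.75% of all genes. None lay wholly below, against 5.79% of all genes. Over the 30 members the median log2 difference was -0.13 and over all genes 0, with 12 members above 0, 16 below and 2 at 0. Of all genes 6149 lay above 0, 5710 below and 2209 at 0. At Ets1 3 sites were in all cDC2 and no cDC1 library, at chr9:32616019-32616210 outside the gene span and at chr9:32676691-32676786 and chr9:32735198-32735295 inside it. S1pr1 and Satb1 held 1 such site each. These 5 make up 1.69% of member sites, against 2.32% of sites given to any gene. Sites in all cDC1 and no cDC2 library numbered 13 (4.41%, against 4.13%), with 2 each at Camk4 and Tox and 1 each at Cd247, Cd6, Ctla4, Il2ra, Il2rb, Lef1, Skap1, Themis and Ubash3a. Both Tox sites of that kind lay inside the gene. The constant Tox site at chr4:6924842-6924942 ranked at 4.31% to 8.48% in cDC2 and at 11.7% to 16.2% in cDC1.

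A list of 56 other T cell genes, of which 50 could be tested and 3 had no summit in any library, gave 1 call between genotypes, in cDC1, where 0.0498% of all genes passed. Cd96, a receptor of T and NK cells, had 0 summits in both WT cDC1 libraries and 3 in both KO cDC1 libraries, and passed in cDC1 (limma adjusted p = 0.0324). Because the WT group was at 0, its fitted difference depends on the pseudocount, and with all deposited summits it did not pass (limma adjusted p = 0.835). Between subsets Cd2 (0, 0, 1 and 2 summits in cDC1, 4, 7, 5 and 5 in cDC2) and Ifng were higher in cDC2, and Cd8a, Cd8b1 and Sh2d2a lower, 5 of 50 genes where 10.4% of all genes passed. Ifng lost its call in 7 of 16 alternatives, 3 of them with 1 library left out (WT cDC1 replicate 2, KO cDC1 replicate 1 or KO cDC2 replicate 1), and its difference of 0.66 ranged from 0 to 0.77. Cd8b1 lost its call in 3 of 16, with differences down to -0.29, and Sh2d2a in 2 of 18. Cd8a, whose protein marks splenic cDC1 as well as T cells, had 5 to 7 summits in cDC1 and 0 or 1 in cDC2. The median difference of the list was 0.08 between subsets and 0 and -0.01 between genotypes in cDC1 and cDC2.

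Marker genes of the sorted cells followed the labels. The 15 cDC1 identity genes summed to 111 to 122 summits in cDC1 and 78 to 81 in cDC2, with 5 of 14 tested genes lower in cDC2 (5.66% of all genes were), and the 15 cDC2 identity genes to 73 to 85 and 91 to 96, with 2 of 13 higher (4.7% of all genes were). All 11 genes of conventional dendritic cells and MHC class II had summits in every library, while Xcr1, the marker of the sort, had 0 in all. The 12 B cell genes summed to 28 to 32 summits in cDC1 and 29 to 38 in cDC2 and the 12 NK cell and innate lymphoid genes to 34 or 35 and 37 to 46. Of defining T cell genes, Cd3g and Foxp3 stood at 0 in every library and Cd3d and Cd3e did not. The part of other cell types in the member values was not tested.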

How the data were processed

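ATAC-seq was done on sorted cDC1 and cDC2 of mouse spleen in 8 libraries, grouped by their titles into 4 groups of 2. Per the submitters' processing notes, the tools were Bowtie2, SAMtools, MACS2 and MultiQC on GRCm38 (mm10). Versions, filters and peak settings are not given in the sources used here. The authors deposited 1 summit list per library (61737 to 96031 summits), called per library, with a −log10 score per peak whose lowest value was 1.3 to 1.36. The score is taken here as a −log10 q-value, rises with depth, and was used for ranks within 1 library alone.

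The 61737 best summits of each library were kept and given to the nearest protein-coding gene span of GRCm38.p6, at most 50 kb away. No reads were used, so depth and counting error are unknown. The annotation gave spans without exons, so no exon or intron is named, and starts came from the RefSeq promoter table. Tcf7, which passed between subsets, has no sequence shown, although the windows of its 2 listed starts were searched for the motifs. Both starts lie inside its span, as that of Cd247 does. Summits per gene were fitted as log2(summits + 1) with limma 3.58.1 in R 4.3.3 over 14068 genes, with 1 mean per group, all 8 libraries sharing 1 spread, and the variance of a whole number, 1 divided by 12, added to each gene's variance.

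Members, lists and tests were chosen with earlier results of these data known. The genes given library by library are those past the threshold, the 10 with most summits, the CD3 chains and Foxp3. Bcl11b in cDC1 was added after its values were seen. Further lists were T cell genes outside the members, pan-cDC and MHC class II, identity genes of cDC1 and of cDC2, B cell, NK cell and innate lymphoid, monocyte and macrophage (30 to 39 summits per library), plasmacytoid DC (34 to 41) and housekeeping (40 to 44). Alternatives were list length, distance, assignment, pseudocount, minimum, variance, replicate block and each library left out.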

Additional observations from a re-analysis of the deposited data

How the results depend on the processing

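Between genotypes, members passed only in the settings named in the results for Bcl11b in cDC1 and Camk4 and Skap1 in cDC2, and for Ctla4 in cDC2 with the 30868 best-ranked summits, while the number of genes called among all genes moved widely. For KO against WT in cDC1 the 7 genes became 18 with all deposited summits, 63 with the 30868 best-ranked summits, 12 with summits given to every gene within 5 kb, 0 with no minimum, 0 with a minimum mean of 3, 176 with no rounding variance, 124 with a trended and robust variance, and 38 to 90 with 1 library left out. For KO against WT in cDC2 the 11 genes became 72, 20, 0, 2, 207 and 89 with the 30868 best-ranked, every gene within 5 kb, no minimum, a minimum mean of 3, no rounding variance and the trended variance, 7 with a pseudocount of 0.5, and 25 to 167 with 1 library left out. For cDC2 against cDC1 the 1457 genes became 886 with no minimum and 2256 with the trended variance. The interaction called 35 genes with the 30868 best-ranked, 299 with no rounding variance, 38 with the trended variance and 1 to 38 with 1 library left out. A group with a library left out holds 1, which is assumed to vary like the others. Why the counts moved was not tested, beyond the genes and libraries each setting removes.

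With the replicate number as a block, 113, 66, 1849 and 38 genes passed in these 4 comparisons, 7, 11, 1424 and 0 of them shared with the fit without it. The titles share only a number, so no pairing was assumed. Over genes, the deviations of same-numbered libraries from their group means had correlations of 0.00173 to 0.0362. These values cannot settle whether the numbers pair libraries, because summits per gene are small whole numbers.

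Tcf7 missed the threshold with all deposited summits, within 10 kb, with every gene within 5 kb and with no rounding variance, Skap1 with no rounding variance (adjusted p = 0.0891), and Tox in 10 of 18 alternatives, at -0.68 to -0.44. The Ctla4 difference of 0.18 between genotypes in cDC2 reversed to -1.40 (limma adjusted p = 0.00256) with the 30868 best-ranked summits. In KO cDC2 some constant Ctla4 sites lay past the end of that shorter list, and why their ranks differed was not tested. The mean member sum of 149.1 became 183.0 with all deposited summits, 57.9 with the 30868 best-ranked, 113.2 within 10 kb and 110.9 with every gene within 5 kb, and the 57 member sites in all 8 libraries became 21 with the 30868 best-ranked. Lists without read counts limit all values: a peak near a library's threshold can be present or missing through depth alone.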

Other observations

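The T cell receptor loci themselves are not protein-coding entries and were counted by their spans. The alpha locus, 1796 kb long, held 14 and 14 against 14 and 14 summits in cDC1 and 13 and 16 against 17 and 18 in cDC2. The beta locus held 18 and 20 against 20 and 19 in cDC1 and 18 and 19 against 24 and 19 in cDC2, and the gamma locus 1 and 4 against 4 and 4 and 3 and 2 against 3 and 3. The first pair of each contrast is WT. The alpha constant region, Trac, carried 1 summit in each of the 8 libraries, and the beta constant regions Trbc1 and Trbc2 carried none. Per 100 kb the loci held 0.835, 2.94 and 1.68 summits on average, against a median of 3.52 over territories of all genes.

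Among the 30868 best-ranked summits of each list Ctla4 had 8 and 7 against 5 and 5 summits in cDC1 and 6 and 5 against 2 and 1 in cDC2, while its number over the whole list was 8 in both KO cDC2 libraries. In that shorter list the KO values lay wholly below the WT values in both subsets, and the share of all genes apart in it was not counted. With the whole list, KO values lay wholly below WT values at 6.75% of all genes in cDC1 and 6.26% in cDC2. Such a separation at a gene picked after its values were seen thus carries no test. In the whole list the 4 constant Ctla4 sites were in both KO cDC2 libraries, at 35.4% to 66.5%, against 20.6% to 48.4% in WT cDC2. In KO cDC2 some of them thus lay past the end of the shorter list. The shorter list gave 72 called genes between genotypes in cDC2, against 11 with the whole list. The Ctla4 log2 difference between genotypes was -0.50 (SE 0.30, limma adjusted p = 0.860) in cDC1 and -1.40 (SE 0.30, limma adjusted p = 0.00256) in cDC2. The interaction did not pass (limma adjusted p = 0.975). This pattern was chosen after its values were seen.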
